A study of Homo sapiens with 5 samples.

Results

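The genes described here are the protein-coding genes of human chromosome 19 whose symbol starts with ZNF, measured by RNA sequencing in 5 libraries of the prostate cancer line C4-2B. Of 58812 gene IDs in the deposited count table, 249 were such genes by the GENCODE annotation. The 242 with at least 10 counts summed over the 5 libraries were kept. The members were thus chosen by their read counts, and their detection is a description. Of these, 34 lie in the 19p12 cluster, taken as 19 to 25 Mb of chromosome 19 on GRCh38, which holds ZNF728. The other 208 lie elsewhere on the chromosome. Just under the minimum were ZNF177 with 5 counts, ZNF486 with 6 and ZNF439 with 8. Just above it, ZNF491, ZNF98 and ZNF99 had 10 counts each.

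C4-2B is a castration-resistant line of the LNCaP lineage, and HOXB13 is a homeodomain protein that binds DNA in prostate epithelium. The study compared clones carrying K13A in HOXB13, a change of lysine to alanine that removes an acetylation site, with the unedited line. C5K13A, a single clone, gave 1 library. C4K13A, also a single clone, gave 2 libraries, and the parental line gave 2. All were of 1 labelled origin, a metastatic castration-resistant line kept in the same labelled medium. How the mutation was introduced is not given in the sources used here, and counts per gene cannot check it. With 1 clone per mutant line, a difference of 1 clone from the parental line cannot be told apart from an effect of the mutation.

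Most zinc finger genes of chromosome 19 belong to the KRAB zinc finger family. Their proteins bind DNA through an array of C2H2 zinc fingers and recruit TRIM28 (KAP1) through the KRAB domain, and TRIM28 in turn brings in the histone methyltransferase SETDB1 and heterochromatin proteins. They are known for silencing transposable elements. The family grew by repeated duplication, which left clusters of similar genes, and the 19p12 cluster is largely specific to primates.

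Promoters of the cluster share sequence. RefSeq held a promoter window of 300 bases (250 before to 50 after the annotated start) for 211 members, 27 in 19p12 and 184 elsewhere. The 15-base run found in the most windows of 19p12 members was ATCTTCTGTCACTCA, searched on both strands and in 15 of 27 (55.6%). It was picked for that count, so its absence from the 184 windows of the other members and its 15 windows among all 35116 of RefSeq (0.0427%) are descriptions. The first sequences are shown because ZNF737, ZNF66 and ZNF85 were among the members lowest in C5K13A, while ZNF714 was the cluster member with the highest level per length and was level across libraries. Each is the 250 bases before the start, from RefSeq on GRCh38.p14, 5′ to 3′ on the strand of the gene, and the capitals mark the 15-base run. They lie at chr19:20565782-20566031 (minus strand) for ZNF737, chr19:20776054-20776303 (plus) for ZNF66, chr19:20923001-20923250 (plus) for ZNF85 and chr19:21081953-21082202 (plus) for ZNF714.
ZNF737: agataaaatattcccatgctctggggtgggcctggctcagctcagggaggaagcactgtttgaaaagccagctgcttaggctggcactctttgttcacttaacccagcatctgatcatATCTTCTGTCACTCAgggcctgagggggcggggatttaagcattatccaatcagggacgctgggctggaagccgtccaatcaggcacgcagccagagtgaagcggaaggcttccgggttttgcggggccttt
ZNF66: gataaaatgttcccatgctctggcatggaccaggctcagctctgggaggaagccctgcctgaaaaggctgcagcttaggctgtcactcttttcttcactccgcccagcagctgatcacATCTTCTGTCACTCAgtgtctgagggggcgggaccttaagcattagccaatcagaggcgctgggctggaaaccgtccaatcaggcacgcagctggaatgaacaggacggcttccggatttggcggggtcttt
ZNF85: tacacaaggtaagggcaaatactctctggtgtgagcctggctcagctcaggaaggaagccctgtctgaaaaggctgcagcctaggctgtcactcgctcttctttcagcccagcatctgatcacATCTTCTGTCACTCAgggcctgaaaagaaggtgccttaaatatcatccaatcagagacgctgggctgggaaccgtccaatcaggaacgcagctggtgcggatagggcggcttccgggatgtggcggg
ZNF714: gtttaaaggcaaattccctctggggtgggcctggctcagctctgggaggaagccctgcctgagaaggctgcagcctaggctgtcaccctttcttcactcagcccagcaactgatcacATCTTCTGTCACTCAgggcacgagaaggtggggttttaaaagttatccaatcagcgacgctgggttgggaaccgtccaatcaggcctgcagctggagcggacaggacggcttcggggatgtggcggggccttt
The letters CCAAT, searched on both strands and not overlapping the 15-base run, were in 27 of 27 windows of 19p12 members, in 46.2% of windows of the other members and in 34.6% of all windows. ZNF728 has no window in the table. A match is a description of the letters and not a binding site.

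A second pair is shown because ZNF415 and ZNF347, neighbours on the long arm outside 19p12, were also among the members lowest in C5K13A. They come from RefSeq on the same build, at chr19:53132911-53133160 (minus strand) for ZNF415 and chr19:53159054-53159303 (minus) for ZNF347. The capitals mark GCGCAGACCCCGCCC, the longest run of bases that both hold.
ZNF415: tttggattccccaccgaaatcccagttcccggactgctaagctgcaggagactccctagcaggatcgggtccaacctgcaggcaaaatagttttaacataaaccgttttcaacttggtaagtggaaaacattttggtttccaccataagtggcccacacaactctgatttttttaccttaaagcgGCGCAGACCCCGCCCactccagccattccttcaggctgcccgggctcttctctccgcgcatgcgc
ZNF347: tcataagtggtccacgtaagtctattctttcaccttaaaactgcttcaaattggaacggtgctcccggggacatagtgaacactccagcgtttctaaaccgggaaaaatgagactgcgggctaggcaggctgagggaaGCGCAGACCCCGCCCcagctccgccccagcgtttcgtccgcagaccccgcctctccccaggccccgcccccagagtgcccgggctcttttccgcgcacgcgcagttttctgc
The promoters of the cluster and of the other members differed in CpG content. The windows of 19p12 members held a median of 10 CpG dinucleotides, from 8 to 18, against a median of 22, from 2 to 49, in the windows of the other members and 14 in all RefSeq windows.

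Total counts ran from 43190276 to 57282373 per library. The 7 luminal prostate markers read here, among them KLK3, were at 107 CPM or more in every library, while the 3 basal and 3 leukocyte markers were under 1 CPM throughout, as were 2 of 3 neuroendocrine, 1 of 3 fibroblast and 2 of 3 endothelial markers. CPM are counts scaled to a common library total with TMM factors. The 2 parental libraries were the most unlike pair of all, with a chi-square per gene of 145 between their counts, against 45.8 between the C4K13A libraries, 45.1 between C5K13A and C4K13A library 2, and 47.0 between C5K13A and parental library 2. Residual mitochondrial ribosomal RNA differed between libraries. It was 674 CPM in C5K13A, 63.1 and 360 CPM in C4K13A, and 28.1 and 1765 CPM in the parental libraries. Whether the 2 libraries of a line are separate cultures is not stated in the labels, and the p-values therefore reflect a spread between libraries that could be technical.

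The members were expressed below protein-coding genes as a whole, and those of 19p12 tended to be lower than the others. Over the 5 libraries, the median log2 CPM of tested members ran from 2.61 to 3.08. It ran from 4.35 to 4.38 for protein-coding genes and from 2.11 to 2.31 for all genes tested. Per kilobase of exon, 19p12 members had a median of 0.817 CPM per kb over the 5 libraries, against 1.4 CPM per kb for the other members. The quartiles overlapped, at 0.190 to 2.12 and 0.634 to 2.72 CPM per kb. ZNF714 led the cluster, with 5.83 CPM per kb in C5K13A, 5.38 and 4.96 in C4K13A, and 4.80 and 5.80 in the parental libraries. ZNF253, ZNF91, ZNF708 and ZNF100 followed, at means of 4.02, 3.40, 3.21 and 2.70 CPM per kb. ZNF91 binds and represses SVA retrotransposons. Its own level varied widely between the parental libraries, at 16.7 CPM in C5K13A, 33.8 and 37.4 CPM in C4K13A, and 63.9 and 25.1 CPM in the parental libraries. The order from ZNF91 to ZNF708 therefore did not hold in every library. Outside 19p12 the highest means per length were those of ZNF358 at 27.9, ZNF580 at 26.5, ZNF787 at 23.5, ZNF146 at 20.8 and ZNF524 at 20.8 CPM per kb. ZNF146, also called OZF, consists almost only of zinc fingers and lacks a KRAB domain. The ranges over the 5 libraries of genes next to each other in this order overlapped, in both places.

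Members share sequence, which limits how exactly reads can be assigned. A median of 17.5% of the 31-base words of a 19p12 member occurred in another gene, from 5.19% to 61.1%, against a median of 10.7%, from 0% to 84.1%, for the other members. How reads with several alignments were counted is not given in the sources used here. Of the 242 members, the spans of 129 overlap a gene on the opposite strand and those of 103 overlap one on the same strand. A member can be in both counts. Depending on how overlaps were treated, such members may gain reads of that gene or lose reads of their own.

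Taken as a whole, the members were lower in C5K13A than in C4K13A. Their summed level was 2489 CPM in C5K13A, 3024 and 3022 CPM in C4K13A, and 3002 and 2595 CPM in the parental libraries. The C5K13A library was the lowest of the 5, and parental library 2 lay nearer to it than to parental library 1. The summed level of the 34 cluster members was 216 CPM in C5K13A, 276 and 280 CPM in C4K13A, and 307 and 247 CPM in the parental libraries. That of the other 208 was 2273 CPM in C5K13A, 2747 and 2742 CPM in C4K13A, and 2695 and 2349 CPM in the parental libraries. In both places C5K13A was the lowest library and parental library 2 the next lowest. In bulk RNA fewer cells expressing a gene and less RNA per cell cannot be told apart.

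Of the 242 members, 229 had enough reads to be tested in the fit that kept the 3 lines apart, 28 of 34 in 19p12 and 201 of 208 elsewhere. Because that filter can keep a gene through the line where it is high, counts and medians over the tested members describe them only. The C5K13A library was lower than each of the other 4 libraries for 114 of 229 tested members, or 49.8%, against 18.9% of all genes tested. This was so for 15 of 28 members in 19p12 and for 99 of 201 elsewhere. Without the filter it was so for 116 of all 242 members. Among ZNF genes of other chromosomes the share was 35.0%. C5K13A was the highest library for 14 of the 229, against 17.1% of all genes tested.

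The shift between the clones was shared by many members and was small for most. The median fitted log2 fold change of C5K13A against C4K13A was -0.39 for 19p12 members and -0.39 for the other members, against -0.13 for ZNF genes of other chromosomes and -0.03 for all genes tested. It was negative for 21 of 28 tested members in 19p12 and for 172 of 201 elsewhere. Blocks along the chromosome ranged from -0.27 at 7 to 19 Mb to -0.46 at 50 to 59 Mb. Genes of chromosome 19 other than ZNF genes had medians of -0.04 at 19 to 25 Mb (20 tested) and -0.04 elsewhere. Among these, genes with other zinc finger symbols, such as ZFP and ZSCAN, had a median of -0.47, negative for 11 of 11 tested. The shift was therefore not particular to genes with a ZNF symbol. The median of the library levels had a pooled SD of 0.14 (19p12) and 0.13 (other members) between libraries of 1 line on the log2 scale. With 1 library of C5K13A, that spread, which may be technical, does not measure how far separate clones differ. With the residual ribosomal RNA of each library as a covariate, an alternative added after the data were seen, these medians were -0.35 for 19p12 members and -0.33 for the other members.

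**Figure D1:**
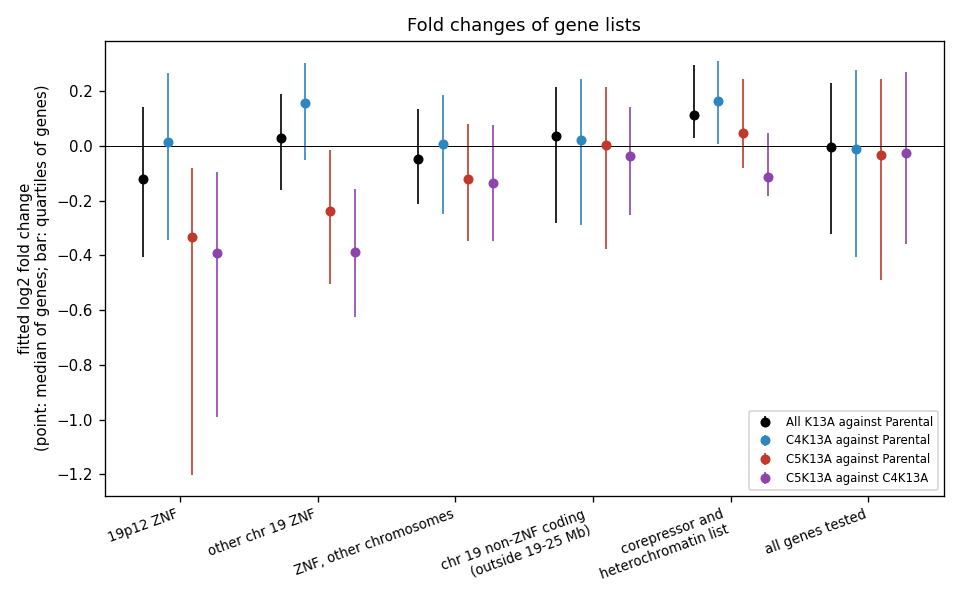
Fitted log2 fold changes of 6 gene lists in 4 comparisons. Points are medians over the genes of a list and bars run from the first to the third quartile of those genes, not over libraries. The medians of both chromosome 19 ZNF lists lie at -0.39 for C5K13A against C4K13A, while that of all genes tested lies at -0.03.

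Against the parental line the shift in C5K13A was less certain. The median log2 fold change was -0.33 for 19p12 members and -0.24 for the other members, against -0.12 for ZNF genes of other chromosomes and -0.03 for all genes tested. The value for the other members was -0.08 without parental library 1 and -0.38 without parental library 2, so the parental libraries decided its size. For 19p12 members it was -0.28 without parental library 1 and -0.50 without parental library 2. With the ribosomal RNA covariate it was -0.31 for 19p12 members and -0.14 for the other members. Residual ribosomal RNA was highest in parental library 2, the parental library with the lower ZNF levels, and its part in the result beyond that fit was not tested.

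One member passed the test in C5K13A, ZNF728 of 19p12 (ENSG00000269067, chr19:22975468-23003176, minus strand), a zinc finger gene of the primate cluster. Its level was 0.0236 CPM in C5K13A, which is 1 count, then 1.88 and 2.32 CPM in C4K13A, and 8.05 and 5.40 CPM in the parental libraries. The 3 lines did not overlap, with C5K13A lowest and the parental line highest. Relative to the parental libraries, the pooled count ratio was 289-fold lower in C5K13A, with an exact 95% interval from 51.7 to 11423 that covers counting error only. The fitted log2 fold change was -8.01 ± 0.76 (SE; edgeR quasi-likelihood test, Benjamini-Hochberg adjusted p = 0.0343). Relative to C4K13A, the ratio was 88.2-fold lower in C5K13A, with an interval from 15.6 to 3501. The fitted change was -6.33 ± 0.77 and lay just inside the threshold of 0.05 (edgeR adjusted p = 0.04996). Both SEs come from the F statistic. With 1 count in C5K13A they are narrower than the counting intervals and understate the error. ZNF728 was known from these same libraries when the cluster was chosen. It passed the filter on low counts through the lines where it is high, so its test is not independent evidence.

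ZNF728 was the only tested member called in C5K13A by edgeR, 1 of 229 against 0.0308% of all genes called lower relative to the parental line (0.0484% in either direction). Relative to C4K13A it was again 1 of 229, against 0.0264% of all genes called lower (0.066% in either direction). Among ZNF genes of other chromosomes edgeR also called 1 of 237 lower in each comparison. The call of ZNF728 held under 8 of 9 alternatives in each comparison. The exception was a filter at 1 CPM in at least 2 libraries, where the adjusted p was 0.135 relative to the parental line and 0.170 relative to C4K13A while the fold changes were -8.03 and -6.34. Over all alternatives the edgeR or DESeq2 adjusted p ran from 2.31e-17 to 0.135 and from 2.70e-10 to 0.170, the lowest values coming from the fit with no filter.

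A larger set of members had low levels in C5K13A without passing the edgeR threshold. At an unadjusted edgeR p under 0.05, 23 members were lower in C5K13A than in the parental line and 0 were higher, of 229 tested, against 4.37% of all genes lower and 2.09% higher. Relative to C4K13A, 34 were lower and 2 were higher (14.8% and 0.873%), against 2.93% of all genes lower and 3.49% higher. DESeq2 called 9 members lower relative to the parental line (4.23% of those it tested, against 1.03% of all genes) and 11 relative to C4K13A (5.09%, against 0.442%). The 9 were ZNF728, ZNF737, ZNF730, ZNF66 and ZNF85 in 19p12 and ZNF415, ZNF347, ZNF677 and ZNF793 elsewhere, and the 11 were these with ZNF570 and ZNF850. For ZNF850 the C5K13A level lay between those of the parental libraries, and C4K13A was the high line. DESeq2 called 0 members higher in either comparison, against 0.347% of all genes relative to the parental line and 0.576% relative to C4K13A. By place, 8 of 28 tested members of 19p12 (28.6%) and 15 of 201 elsewhere (7.46%) were lower than in the parental line at that unadjusted p, and 8 of 28 (28.6%) and 26 of 201 (12.9%) were lower than in C4K13A. DESeq2 called 5 of 27 in 19p12 (18.5%) in each comparison, and elsewhere 4 of 186 (2.15%) relative to the parental line and 6 of 189 (3.17%) relative to C4K13A. A fitted log2 fold change below -2 relative to the parental line was found for 17.9% of tested members in 19p12 and 4.48% elsewhere, against 4.49% of protein-coding genes and 6.36% of all genes. Relative to C4K13A it was found for 14.3% in 19p12 and 3.98% elsewhere, against 3.22% of protein-coding genes and 5.09% of all genes. These shares describe the tested members, and the difference between the 2 places was not tested.

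The other members of this set in 19p12 were ZNF737, ZNF730, ZNF66 and ZNF85. ZNF737 (chr19:20535825-20565809) was at 0.0945 CPM in C5K13A, 1.52 and 1.74 CPM in C4K13A, and 3.90 and 2.48 CPM in the parental libraries. Its fitted log2 change was -5.04 ± 0.69 relative to the parental line (edgeR adjusted p = 0.0823) and -4.07 ± 0.68 relative to C4K13A (adjusted p = 0.152). Like ZNF728, it was ordered C5K13A, C4K13A and parental from low to high with no overlap. ZNF730, the next member beyond ZNF728, had 2 counts in C5K13A, or 0.0473 CPM, against 1.42 and 0.883 CPM in C4K13A and 2.76 and 1.46 CPM in the parental libraries. Its pooled count ratio was 45.6-fold lower in C5K13A than in the parental line (exact 95% interval 12.5 to 379) and 24.8-fold lower than in C4K13A (6.70 to 207). The edgeR adjusted p was 0.156 and 0.239 for these comparisons, so neither passed. The C4K13A and parental libraries of ZNF730 were close, with 1.42 CPM in C4K13A against 1.46 CPM in a parental library.

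ZNF66 and ZNF85, which lie near each other, were low in C5K13A alone. ZNF66 had 0.425 CPM in C5K13A, 2.96 and 3.30 CPM in C4K13A, and 2.86 and 2.36 CPM in the parental libraries. ZNF85 had 1.77 CPM in C5K13A, 6.59 and 7.11 CPM in C4K13A, and 5.56 and 4.88 CPM in the parental libraries. For both genes all 4 other libraries lay well above C5K13A, and C4K13A lay above the parental line. The fitted log2 change relative to C4K13A was -2.87 ± 0.50 for ZNF66 (edgeR adjusted p = 0.160) and -1.95 ± 0.37 for ZNF85 (adjusted p = 0.201).

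The low members of 19p12 did not form an unbroken stretch. On the near side of ZNF728, ZNF98, ZNF492 and ZNF99 had 2 counts or fewer in C5K13A, but they were at most at 0.177 CPM in any library and too low to compare. On the far side, beyond ZNF730, ZNF724 had 9.67 CPM in C5K13A, 7.43 and 8.51 CPM in C4K13A, and 6.0 and 8.86 CPM in the parental libraries. That gene, 246 kb from ZNF728 from start to start, was highest in C5K13A. ZNF91, the next one along, was lowest in C5K13A (levels above), at -1.41 ± 0.49 on the log2 scale relative to the parental line (edgeR adjusted p = 0.680). ZNF714, between ZNF85 and ZNF257, was at 46.8 CPM in C5K13A, 43.3 and 39.9 CPM in C4K13A, and 38.5 and 46.6 CPM in the parental libraries, so its lines overlapped.

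**Figure D2:**
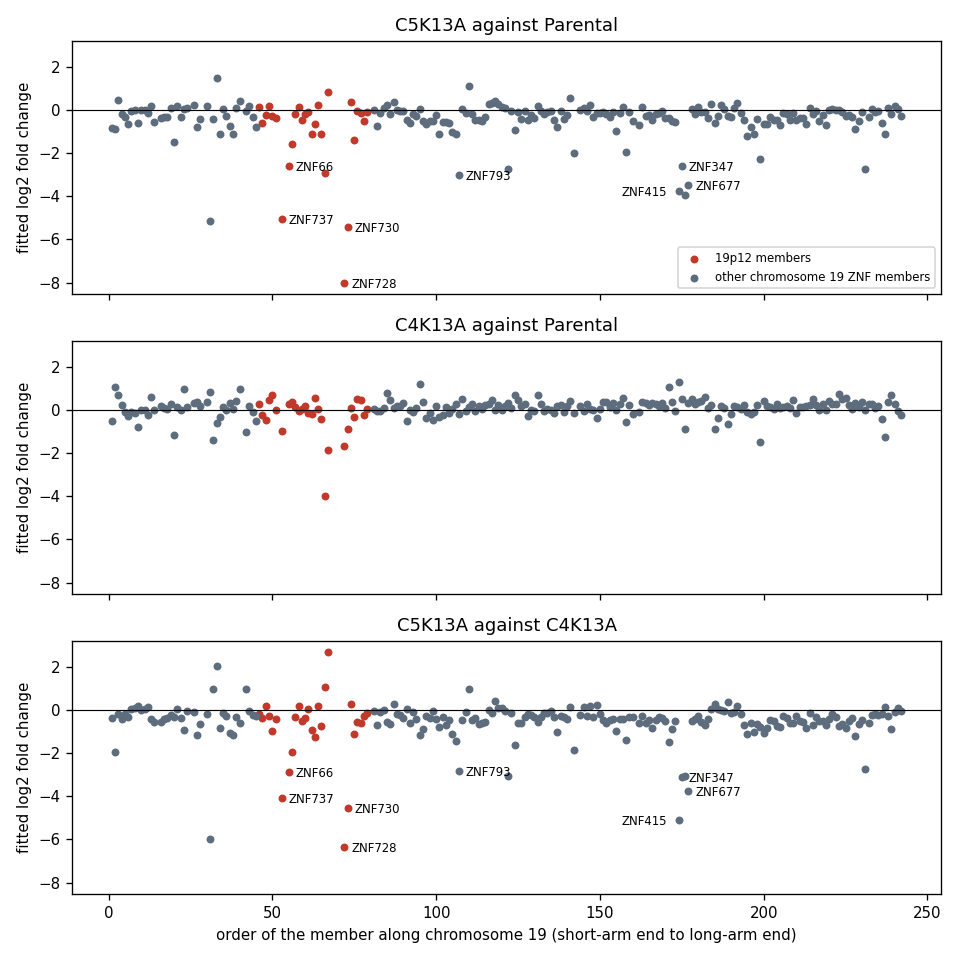
Fitted log2 fold change of each tested member, by its order along chromosome 19, in 3 comparisons; red points are 19p12 members and grey points the others. ZNF728, ZNF730 and ZNF737 stand lowest in 19p12 for C5K13A against the parental line, with ZNF728 at -8.01. Unlabelled low points include genes of few reads, such as ZNF878 with 0 counts in C5K13A, 2 and 12 in C4K13A, and 0 and 9 in the parental libraries.

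Outside 19p12, 3 low members lay near each other on the long arm, ZNF415 (chr19:53107879-53133077), ZNF347 (chr19:53124072-53159075) and ZNF677 (chr19:53235381-53254898). ZNF415, a zinc finger gene with reported effects on p53 and AP-1 reporters, was at 0.0945 CPM in C5K13A, 3.24 and 3.30 CPM in C4K13A, and 1.80 and 0.847 CPM in the parental libraries. Its 3 lines did not overlap, but here C4K13A was highest. The fitted log2 change was -5.07 ± 0.78 relative to C4K13A (edgeR adjusted p = 0.112) and -3.77 ± 0.77 relative to the parental line (adjusted p = 0.267). ZNF347 was at 0.756 CPM in C5K13A, 6.59 and 6.55 CPM in C4K13A, and 6.47 and 2.60 CPM in the parental libraries. ZNF677, a gene described as methylated and silent in several carcinomas, was at 0.142 CPM in C5K13A, 1.72 and 2.21 CPM in C4K13A, and 1.95 and 1.22 CPM in the parental libraries. For both genes C5K13A lay below all other libraries. C4K13A overlapped the parental line for ZNF677. For ZNF347 it lay above parental library 2 but only just above parental library 1. The annotated spans of ZNF415 and ZNF347 overlap on the same strand, so reads in that stretch may count for either gene or for neither. ZNF160, 41.3 kb before ZNF415, was closer between lines but still lowest in C5K13A. It was at 10.8 CPM in C5K13A, 14.7 and 16.3 CPM in C4K13A, and 17.7 and 14.7 CPM in the parental libraries. Other neighbours, named after their values were seen, were also lowest in C5K13A. ZNF816 was at 3.31 CPM in C5K13A, 6.17 and 6.09 CPM in C4K13A, and 4.50 and 5.08 CPM in the parental libraries. ZNF888 and ZNF665, with few reads, were at 0.378 and 0.0236 CPM in C5K13A. Their lowest levels elsewhere were 0.473 and 0.0394 CPM, both in parental library 2.

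ZNF793 and ZNF570, neighbours on the long arm (chr19:37506939-37548762 and chr19:37467585-37488652), were also lowest in C5K13A. ZNF793 was at 0.638 CPM in C5K13A, 5.89 and 3.16 CPM in C4K13A, and 6.59 and 3.68 CPM in the parental libraries. ZNF570 was at 3.45 CPM in C5K13A, 9.13 and 9.37 CPM in C4K13A, and 8.13 and 6.93 CPM in the parental libraries. C4K13A overlapped the parental line for ZNF793 and lay above it for ZNF570. Neither passed the edgeR test relative to C4K13A, with log2 changes of -2.82 ± 0.61 (adjusted p = 0.304) and -1.42 ± 0.32 (adjusted p = 0.318). Neighbours of this pair, named after their values were seen, differed among themselves. ZNF569, whose span overlaps that of ZNF570, was at 2.84 CPM in C5K13A, 5.19 and 6.90 CPM in C4K13A, and 6.37 and 5.18 CPM in the parental libraries, so C5K13A was lowest here too. ZNF571, which overlaps neither member of the pair, was closer between lines, at 4.07 CPM in C5K13A, 4.35 and 4.42 CPM in C4K13A, and 4.64 and 4.37 CPM in the parental libraries.

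**Figure D3:**
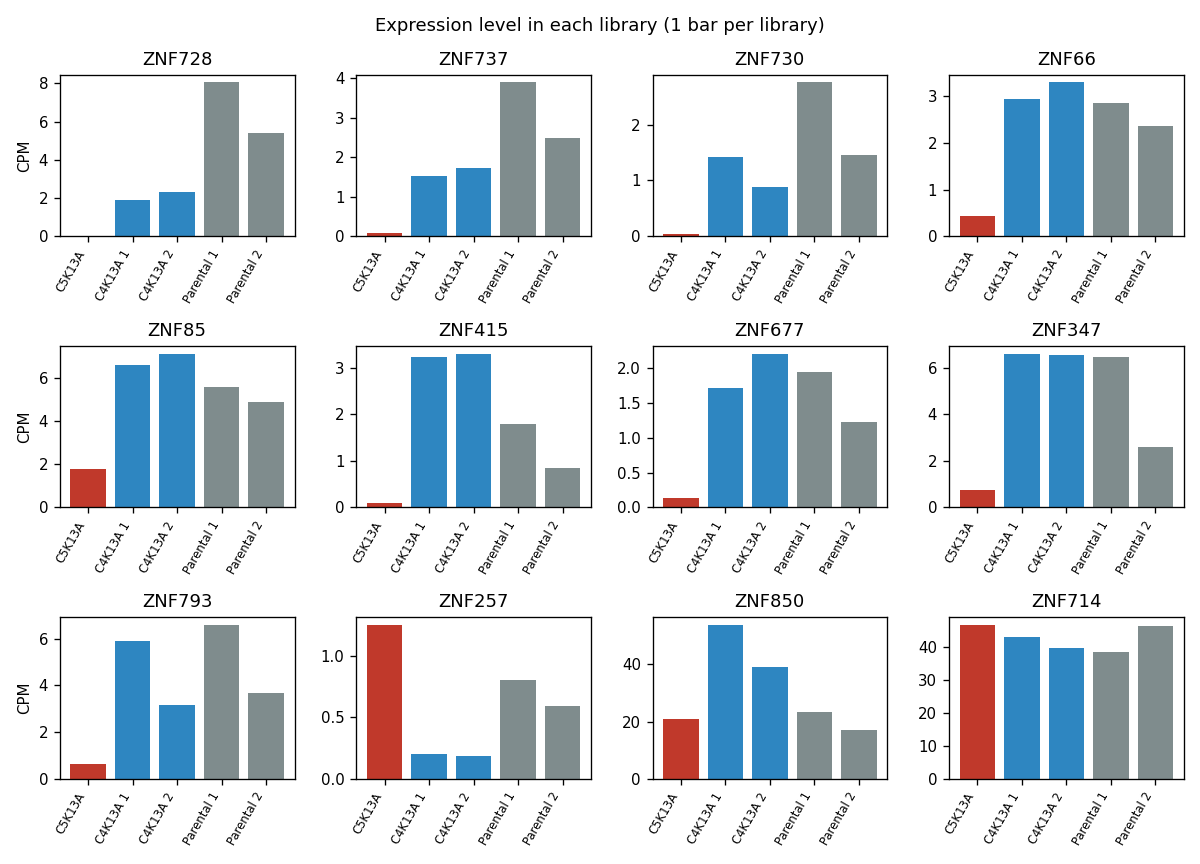
Level of 12 members in each library, in CPM on a linear axis from 0, with 1 bar per library. ZNF728 stands at 0.0236 CPM in C5K13A and at 8.05 and 5.40 CPM in the parental libraries, and ZNF714 is alike in all 5 libraries.

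Promoters of low and high CpG content were both found among the low members. Of the members that DESeq2 called lower in C5K13A than in C4K13A, ZNF737, ZNF66 and ZNF85 had 8, 9 and 9 CpG in the window and hold the 15-base run shown above. ZNF730, ZNF793 and ZNF570 had 16, 16 and 14, and ZNF415, ZNF850, ZNF347 and ZNF677 had 17, 23, 27 and 30. Of these, ZNF850 was lower than in C4K13A only, and its C5K13A level lay between those of the parental libraries. Promoter methylation was not measured.

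**Figure D4:**
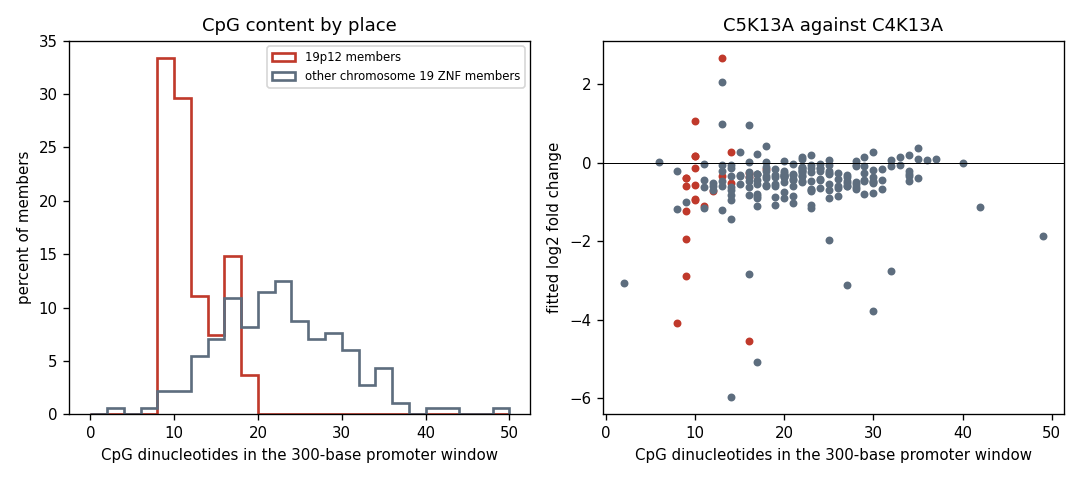
Left, percent of members by the number of CpG dinucleotides in the 300-base promoter window, for 27 members of 19p12 (red) and 184 others (grey). Right, fitted log2 fold change of C5K13A against C4K13A by the same number; the 19p12 windows lie between 8 and 18, and low fold changes occur at both low and high CpG content.

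Few members were higher in C5K13A than in the other lines. ZNF257 of 19p12 had 1.25 CPM in C5K13A, 0.200 and 0.186 CPM in C4K13A, and 0.806 and 0.591 CPM in the parental libraries. C4K13A was the low line for this gene, and C5K13A lay above both parental libraries. Its log2 change was 2.68 ± 0.64 relative to C4K13A (edgeR adjusted p = 0.368) and 0.84 ± 0.61 relative to the parental line (adjusted p = 0.863). ZNF844, outside 19p12, was higher in C5K13A than in C4K13A but not than in the parental line. It had 4.42 CPM in C5K13A, 2.48 and 2.02 CPM in C4K13A, and 7.19 and 4.57 CPM in the parental libraries, so C4K13A was the low line again. ZNF296 had 12.7 CPM in C5K13A, 12.4 and 10.6 CPM in C4K13A, and 7.73 and 9.53 CPM in the parental libraries, a log2 change of 0.56 ± 0.28 in C5K13A relative to the parental line (edgeR adjusted p = 0.787).

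In C4K13A no member passed the edgeR test against the parental line, 0 of 229 against 0.699% of all genes tested. At an unadjusted p under 0.05, 15 were higher and 10 were lower, against 4.27% of all genes higher and 7.93% lower. DESeq2 called ZNF850 higher, against 1.08% of all genes, and ZNF728, ZNF579 and ZNF844 lower, against 2.63%. The median log2 fold change was 0.02 for 19p12 members and 0.16 for the other members, against -0.01 for all genes tested. The value for the other members was 0.31 without parental library 1 and 0.01 without parental library 2, so it rested on the parental libraries. ZNF850, on the long arm, was at 53.8 and 39.1 CPM in C4K13A and at 23.3 and 16.9 CPM in the parental libraries, with 20.9 CPM in C5K13A. Both C4K13A libraries lay above all others, with a log2 change of 1.21 ± 0.24 (edgeR adjusted p = 0.0802). Over the alternatives its adjusted p ran from 9.70e-06 to 0.229, and 7 of 11 called it. For ZNF728 the change in C4K13A was -1.68 ± 0.34 (edgeR adjusted p = 0.0849), with both C4K13A libraries below both parental ones. Over the alternatives its adjusted p ran from 0.000777 to 0.268, and 5 of 11 called it. Members of 19p12 with the highest fold changes in C4K13A were ZNF93, ZNF429 and ZNF675, at 0.68 ± 0.28, 0.57 ± 0.26 and 0.51 ± 0.22 on the log2 scale, none of which passed. ZNF93 is known to bind and repress LINE-1 elements.

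With both clones taken as 1 mutant group, no member passed either, 0 of 226 tested against 0.203% of all genes tested. At an unadjusted edgeR p under 0.05, 3 were higher and 9 were lower, against 4.3% of all genes higher and 6.68% lower. DESeq2 called ZNF579 and ZNF837 lower, against 1.83% of all genes. ZNF579 was at 21.2 CPM in C5K13A, 19 and 15.9 CPM in C4K13A, and 35.1 and 28.7 CPM in the parental libraries. ZNF837 was at 2.10 CPM in C5K13A, 2.10 and 1.72 CPM in C4K13A, and 5.69 and 3.52 CPM in the parental libraries. All 3 mutant libraries lay below both parental libraries for each gene, with log2 changes of -0.77 ± 0.19 (edgeR adjusted p = 0.211) and -1.23 ± 0.31 (adjusted p = 0.229). ZNF208 of 19p12, chosen after its values were seen, had 2 counts in C5K13A, 2 and 0 in C4K13A, and 28 and 14 in the parental libraries (edgeR adjusted p = 0.244). Among members outside 19p12 with at least 0.5 CPM, ZNF443 had the largest positive change after ZNF850, 0.81 ± 0.29 (edgeR adjusted p = 0.365). The median log2 fold change in this comparison was -0.12 for 19p12 members and 0.03 for the other members, against -0.0047 for all genes. The 19p12 value was 0.05 without parental library 1.

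The members most like ZNF728 in their pattern over the 5 libraries were ZNF737, ZNF585A, ZNF829, ZNF730 and ZNF527, with Pearson r of log2 CPM of 0.997, 0.989, 0.980, 0.979 and 0.978. The 5 points come from 3 lines and share their library depth, and the value describes these libraries only. The size of the fall differed among them. ZNF585A was at 2.22 CPM in C5K13A and at 5.31 and 4.39 CPM in the parental libraries, and ZNF527 at 4.30 CPM in C5K13A and at 6.84 and 6.30 CPM in the parental libraries.

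RNA of the partners through which KRAB zinc finger proteins act was read from a list of 24 corepressor and heterochromatin genes. All 24 were tested and edgeR called 0 in any of the 4 comparisons, against the shares of all genes given above (0.0484% to 0.699%). At an unadjusted edgeR p under 0.05, 1 was higher and 1 lower in C5K13A than in C4K13A (3.49% and 2.93% of all genes), and 1 higher and 0 lower than in the parental line (2.09% and 4.37%). In C4K13A 3 were higher and 1 lower than in the parental line (4.27% and 7.93%), as in both clones as 1 group (4.3% and 6.68%). DESeq2 called UHRF1 higher with both clones taken as 1 group (0.967% of all genes were called higher) and TASOR lower in C4K13A (2.63% were called lower), and it called 0 of the list in C5K13A in either comparison. UHRF1, which helps DNMT1 to copy DNA methylation, was at 88.3 CPM in C5K13A and 84.8 and 87.1 CPM in C4K13A. The parental libraries had 44.1 and 63.6 CPM, so every mutant library lay above both parental ones. Within the list the same order held for DAXX, ATF7IP, HDAC2, DNMT1, PPHLN1 and CBX3, and the reverse for DNMT3A and TASOR. Some of these margins were small. TRIM28, the scaffold that KRAB domains bind, was at 705 CPM in C5K13A, 763 and 753 CPM in C4K13A, and 683 and 748 CPM in the parental libraries, so the lines overlapped. SETDB1, which methylates histone H3 at lysine 9, was at 34.6 CPM in C5K13A, 44.7 and 41 CPM in C4K13A, and 44.7 and 41.8 CPM in the parental libraries. Its level was lowest in C5K13A, with a log2 change of -0.31 ± 0.22 relative to C4K13A (edgeR adjusted p = 0.913). TASOR, a subunit of the HUSH silencing complex, was at 42.1 CPM in C5K13A, 24.0 and 22.5 CPM in C4K13A, and 42.2 and 42.9 CPM in the parental libraries. For that gene C4K13A was the low line, at -0.87 ± 0.17 relative to the parental line (edgeR adjusted p = 0.0811). The median log2 fold change of the list was -0.11 for C5K13A against C4K13A and 0.05 for C5K13A against the parental line. It was 0.16 for C4K13A against the parental line and 0.11 for both clones as 1 group. In each of these, 19 of 24 were positive and 5 negative (20.8%), against 51.1% and 50.6% of all genes negative.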

How the data were processed

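The deposited values are the authors' whole-number read counts per Ensembl gene, not normalized. Per the labels' protocols, column-purified, DNase-treated total RNA went through RiboErase depletion and Illumina HiSeq sequencing. The submitters' processing notes name bcl2fastq, STAR 2.5, Subread and featureCounts 1.4.6-p5. Not given in the sources used here are the build, annotation, strand setting and multi-mapping treatment. Groups follow the sample labels.

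Symbols, positions and exon lengths were taken by ID from GENCODE release 29 (GRCh38), which held 55297 of 58812 IDs and may differ from the authors' annotation. Members, lists and tests were chosen with earlier results of these data known.

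Counts were fitted over the whole table with edgeR 4.0.16 under R 4.3.3 (TMM, filterByExpr, glmQLFit, glmQLFTest, Benjamini-Hochberg adjustment, threshold 0.05). Both clones against the parental line used 2 groups (20649 genes). The other comparisons came from 1 fit of 3 groups (22743 genes), where C5K13A, with 1 library, takes its spread from the other lines. Every comparison with the parental line shares its 2 libraries. Named genes are ZNF728, members called, the 3 highest and 3 lowest fold changes per comparison and place with at least 0.5 CPM in the higher group, the 5 highest levels per length in each place, the 3 neighbours of ZNF728 on each side and the 5 most like it. Members called by DESeq2 1.42.0 and neighbours of low members were named after their values were seen. SE is the size of the fold change over the root of F, and for genes with few counts in a line it understates the counting error. Log2 CPM used a prior count of 2. For groups with 1 to 3 counts the text gives pooled-count ratios, with exact intervals for counting error only, since reads are not independent molecules. No pair of libraries looked like a duplicate (chi-square per gene 45.1 to 145). The fits were tested on simulated data.

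Alternatives were RLE factors, no filter, a filter at 1 CPM in 2 libraries, DESeq2, a 3-group fit, a replicate block, leaving out each library, at least 50 counts, other cluster bounds (19.5 to 24.5 Mb) and, added after the data were seen, a covariate for residual ribosomal RNA split at 200 CPM. Further luminal markers are not reported here.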

Additional observations from a re-analysis of the deposited data

Results flagged for a closer look

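ZNF728 was singled out because its fitted difference between the clones lay just inside the threshold. It was at 0.0236 CPM in C5K13A, 1.88 and 2.32 CPM in C4K13A, and 8.05 and 5.40 CPM in the parental libraries. The fitted log2 fold change of C5K13A against C4K13A was -6.33 ± 0.77 (edgeR adjusted p = 0.04996), beside -8.01 for C5K13A and -1.68 for C4K13A against the same parental libraries. C5K13A rests on 1 library with 1 count of this gene, and with a filter at 1 CPM in 2 libraries the call was lost (edgeR adjusted p = 0.170). At 1 count the SE understates the counting error. The gene was known from these libraries beforehand, so the test is not independent evidence.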

How the results depend on the processing

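The number of members called varied with the method. For both clones against the parental line it was 0 in the fit reported, 6 with no filter, 2 with DESeq2, 2 with 3 groups and 0 to 0 on leaving out a library. For C4K13A against the parental line it was 0, and 7 with no filter, 4 with DESeq2, 4 with the replicate block, 4 with the ribosomal RNA covariate and 0 to 8 on leaving out a library. For C5K13A against the parental line it was 1, and 11 with no filter, 0 with the stricter filter, 9 with DESeq2, 4 with the covariate and 2 to 15 on leaving out a library, 15 without parental library 2. For C5K13A against C4K13A it was 1, and 15 with no filter, 0 with the stricter filter, 11 with DESeq2, 4 with the covariate and 2 to 8 on leaving out a library. On leaving out a library, medians for both clones ran from -0.24 to 0.045 (19p12) and from -0.084 to 0.19 (others), for C4K13A from 0.0087 to 0.31 (others), and for C5K13A against the parental line from -0.50 to -0.28 (19p12) and from -0.38 to -0.076 (others). ZNF415 reversed for both clones, from 0.74 to -1.24 with 3 groups, which weights the clones equally. Of 477 single-gene alternatives over 48 results, 398 kept direction and call, 76 passed the threshold only in the alternative, 2 lost it (ZNF728, stricter filter) and 1 reversed. The cause of these shifts was not tested. The replicate number pairs only 2 libraries of each of 2 lines (r = 0.315 between deviations of same-numbered libraries), so it is not shown to mark a shared batch. In both lines library 1 had the lower residual ribosomal RNA, so for C4K13A against the parental line the block and the covariate are nearly 1 and the same alternative (ZNF728 -1.66 in each). Leaving out a library of a line with 2 leaves it with 1, assumed to vary like the others. Levels under about 1 CPM rest on few reads.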
